A study of Rattus norvegicus with 3 samples.

Results

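The comparison described here set the vestibular nuclei of rats 7 days after removal of the left labyrinth against those of sham-operated controls, on 1 microarray each. The labels give adult male Sprague-Dawley rats with body weights of 200 to 250 g. Tissue of 3 rats was taken for each group because that of 1 rat would not have sufficed, and each array thus seems to hold a pool. The nuclei came from the operated side at day 1 and day 7, while the labels do not give the side of the controls. The sample labels call the control sham-operated and the treatment text calls the control animals normal. The day 1 array appears below only as a value beside the comparison, and both days share the same sham array. With 1 array a group there was no replicate of any condition, no test and no p-value, and each difference is a size measured between 2 arrays.

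The vestibular nuclei are the part of the brainstem in which the nerve of the balance organ ends. They hold projection neurons that drive eye movement, neck and limb muscles, local neurons that release the inhibitory transmitters GABA or glycine, and the glia around them. Loss of a labyrinth silences the nerve input of that side, and the slow return of balance that follows is called vestibular compensation. Inhibition, intrinsic excitability, synapses and glia have all been studied as places where this recovery could act.

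A value is the log2 of a probe's processed intensity minus the 75th percentile of its own array, and a level below is that value brought back to the intensity scale of the sham array. A probe counted as measured when both the sham and the day 7 array had it well above background and short of saturation. This held for 29608 of 41012 probes. Of 8899 genes that a RefSeq accession could name, 6261 were measured by their brightest probe. The other 11404 probes comprised 6879 that were well above background on neither array, 2625 in sham only, 901 at day 7 only and 999 that were saturated. Spots well above background made up 81.3% on the sham array and 76.9% on the day 7 array. Signals counted as well above background began at 66.9 in sham and at 121.6 at day 7, so the dim end reached lower on the sham array.

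Markers of the expected cells were present. All 8 neuron markers named on the array, all 5 astrocyte markers and all 5 oligodendrocyte markers were well above background in sham and at day 7. Hoxa2, a hindbrain position gene and the single hindbrain marker of the fixed set that the array names, stood at 8478 in sham and 8525 at day 1, and its 28.6 at day 7 was not well above background. Zic1, a transcription factor of cerebellar granule cells, went from 809 in sham and 1809 at day 1 to 97.6 at day 7, again not well above background. Neurod1, also a granule cell gene, was at 215 in sham and was not well above background on either array after surgery. Hoxb7, another hindbrain gene, was at 3780, 7765 and 5680, a log2 fold of 0.59. The other measured genes of the hindbrain list went both ways. Esrrb gave -1.62, Phox2a -0.49 and Onecut1 -0.18, while Maf gave 0.95 and Gata3 1.07. The measured cerebellar genes did not follow Zic1 and Neurod1. Of 9 on a list of such genes, 2 were at least 2-fold higher (22.2%, against 11.1% of all genes), Ppp1r17 (1.73) and Barhl1 (1.12), and none was lower (5.73% of all genes). Pax6, also of granule cells, gave -0.06, and the list median was 0.45 on the log2 scale. Neurod2, a neuronal differentiation factor from a list of forebrain genes, was at 5944, 5685 and 470. The labelled tissue was the same for both groups, and dissection, position on the slide and surgery cannot be told apart here.

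At 2-fold, 3204 probes were higher at day 7 and 1687 lower, which is 10.8% and 5.7% of the measured probes, or 16.5% together. By gene, 698 were higher (11.1%) and 359 lower (5.73%), or 16.9% together. The median log2 fold over all genes was 0.05, and 63.2% of genes lay within 1.5-fold of sham. At 8-fold, 22 genes were higher (0.351%) and 33 lower (0.527%). The share of higher genes among those past 2-fold was 66% with scaling by percentile, 56.5% after quantile normalization and 55.1% after cyclic loess. Beside these, 520 genes were higher (8.26%) and 275 lower (4.37%) at day 1 among 6292.

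The excess of higher genes lay at the dim end. In the dimmest of 4 equal groups of genes by level, 354 of 1566 were at least 2-fold higher and 113 lower, with a median log2 fold of 0.40. In the brightest group, 27 of 1565 were higher and 40 lower, and the median was -0.09. The medians of the groups between them were 0.18 and -0.01. Genes below 121.6 in sham, as described above, could only come out higher. For lists of mostly dim genes, these values stand beside those of all genes.

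**Figure D1:**
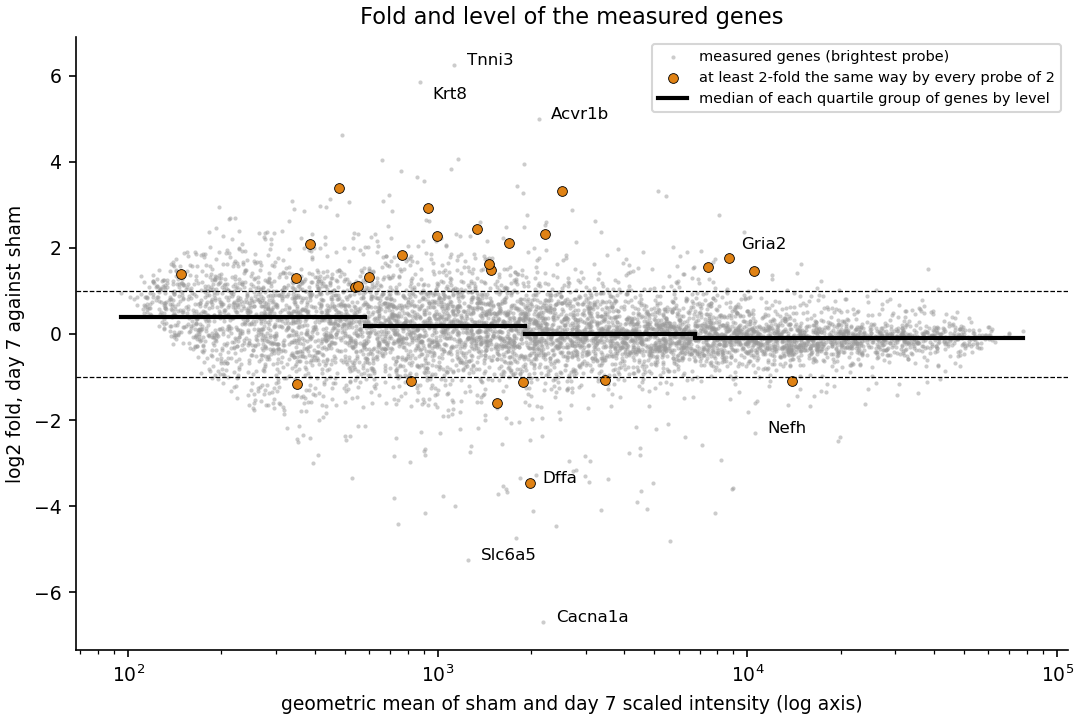
Log2 fold at day 7 against sham (y axis) over the geometric mean of the sham and day 7 scaled intensity (x axis, log scale) for the 6261 measured genes, 1 grey point a gene. Dashed lines mark 2-fold, black bars the median of each of 4 equal groups of genes by level, which falls from 0.40 to -0.09, and orange points the 26 genes past 2-fold in 1 direction by both of their probes.

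Most of the array is not in the named genes, and probes without a name differed about as often. Of 5888 measured probes that carry an Ensembl transcript name, 772 were higher (13.1%) and 384 lower (6.52%). Of 3533 whose RefSeq accession had no entry in the gene table, 376 were higher (10.6%) and 177 lower (5.01%). Of 12564 with another accession or none, 1215 were higher (9.67%) and 654 lower (5.21%). Of 7623 probes with a named gene, 841 were higher (11%) and 472 lower (6.19%). The probe with the highest fold on the array was among the unnamed, ENSRNOT00000018109, with levels of 208 in sham, 252 at day 1 and 31206 at day 7, a log2 fold of 7.23. The lowest fold of the unnamed probes was that of ENSRNOT00000021703, which stood at 8127 in sham and 219 at day 7, a log2 fold of -5.21, and was not well above background at day 1. Among 957 unnamed identifiers with at least 2 measured probes, 26 were at least 2-fold higher by every probe and 12 lower.

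Genes with more than 1 probe carry a partial check within the array. Of 1121 genes with 2 or more measured probes, 19 were at least 2-fold higher by every probe (1.69%) and 7 lower (0.624%). Among the 19, Gad1, Kcnt2, Creb1, Dnaaf4, C8h11orf54, Cgm4 and Per3 had a probe below 121.6 in sham. Such a probe could be measured only if higher, so its direction was no check, and the filter favoured the higher side. The folds of the 2 brightest probes differed by a median of 0.41 log2, with a 90th percentile of 1.41. Of 89 genes past 2-fold by the brightest probe, the second was past 2-fold the same way for 26 and the opposite way for 12. Probe choice thus moved a fold by more than the spots did, since probes printed on 10 spots had a median SD between spots of 0.09 in sham and 0.08 at day 7.

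Dlg4, Gria2 and Gad1, which act at synapses, were among the 19 higher genes. Dlg4, the scaffold PSD-95 of excitatory synapses, read 572 in sham, 752 at day 1 and 3121 at day 7 by its 10-spot probe. Its log2 fold was 2.45 with an error of 0.05 from the spots alone, and its other probe gave 3.89. Gria2, which makes AMPA receptors impermeable to calcium, was at 4715, 9310 and 16064 by 10 spots, a log2 fold of 1.77 with a spot error of 0.04, and the other probe gave 1.63. Both genes were highest at day 7 by every probe, and Gria2 lay between the other arrays at day 1. Gad1, an enzyme that makes GABA, was at 148 in sham, not well above background at day 1, and at 1559 at day 7, with log2 folds of 3.39 and 1.59 by its measured probes. Another probe of Gad1 read 129 in sham and 117 at day 7, where it was not well above background. Rasd2, a small G protein known from the striatum, was at 6327, 4916 and 17363, with folds of 1.46 and 1.70. Kcnt2, a sodium-activated potassium channel, gave 2.09 and 2.60 from low levels, 187 in sham and 796 at day 7 by the brighter probe. Creb1, the activity-dependent transcription factor, was dim, at 81.8, 199 and 245 by its 9 or 10 spots, with folds of 1.58 and 1.39.

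Drc12, Lrrc46 and Dnaaf4, known from motile cilia, were also among the 19. Drc12, a part of the ciliary dynein regulatory complex, was at 450, 639 and 2189, with log2 folds of 2.28 and 2.95. Lrrc46, a leucine-rich repeat gene of ciliated cells, was at 338, 308 and 2562, with folds of 2.92 and 1.86. Dnaaf4, a dynein arm assembly factor, gave 1.12 and 1.28, and under cyclic loess both its probes fell below 2-fold (0.95 and 0.93). C1qc, a chain of the complement starter C1q, was at 797, 616 and 7909 by the brighter probe, a fold of 3.31, whereas the other probe gave 1.03, and 0.93 after quantile normalization. Anxa1, an annexin that damps inflammation, gave 1.49 and 2.16, the clock gene Per3 1.31 and 1.77, and the proteoglycan Gpc3 1.55 and 1.46. Tmem109 gave 2.33 and 3.61 and the small G protein Rras2 2.11 and 1.94. Slc27a5, C8h11orf54 and Cgm4 were also among the 19, and a probe of each dropped under 2-fold in some alternatives, to as little as 0.95, 0.75 and 0.78.

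Lower by both probes were 7 genes. Nes, the intermediate filament nestin, was at 1192, 756 and 560, with log2 folds of -1.09 and -1.34. Acat1, a mitochondrial enzyme of ketone and isoleucine breakdown, was at 2695, 911 and 890, with folds of -1.60 and -1.44. Capn2, a calcium-activated protease, was at 20384, 16608 and 9579, with folds of -1.09 and -1.17. Prim1, a DNA primase subunit, gave -1.07 and -1.31, Gskip -1.12 and -1.07. Nes, Acat1, Capn2, Prim1 and Gskip were already below sham at day 1 by both probes, though Gskip only by -0.04 with its brighter probe. Dffa, the inhibitor of an apoptotic nuclease, gave -3.47 and -2.16, but its probes disagreed at day 1, where they read 1.77 and -0.73. Under normexp background correction, an alternative added after seeing the data, a probe each of Gskip (-0.51), Acat1 (-0.93) and Nes (-0.95) fell short of 2-fold.

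**Figure D2:**
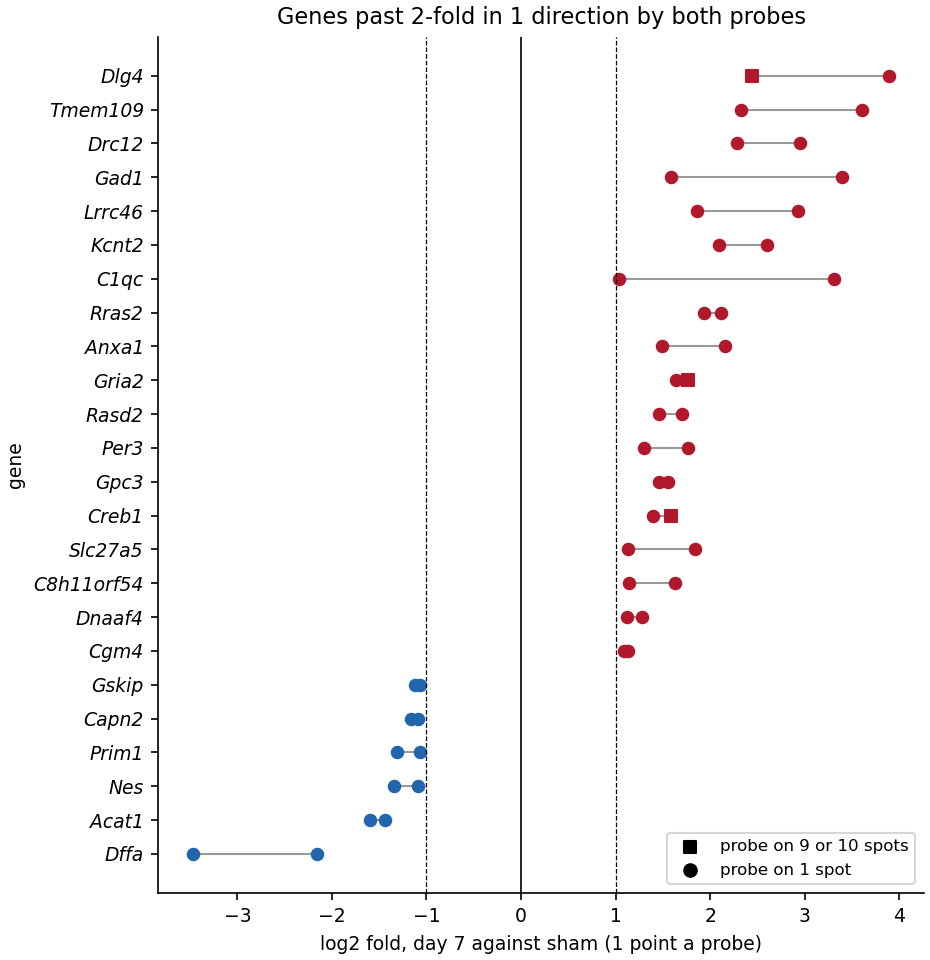
Log2 fold at day 7 against sham (x axis) of genes (y axis) among the 26 past 2-fold in 1 direction by every measured probe, 1 point a probe, joined by a line; squares are probes on 9 or 10 spots and dashed lines mark 2-fold. The probes of Gria2, Gpc3, Cgm4 and Gskip lie close together, while those of Gad1, C1qc, Dlg4, Dffa, Tmem109 and Lrrc46 are over 1 log2 unit apart.

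Probes on 10 spots give the tightest values, with a median spot error of 0.04 over the 159 named ones. Of all 194 such probes measured, 25 were higher (12.9%) and 14 lower (7.22%). The largest fold of the named ones was that of Cck, the neuropeptide cholecystokinin, at 1004 in sham, 1374 at day 1 and 7342 at day 7, a log2 fold of 2.87 with a spot error of 0.04. Cckar, a receptor for it, was at 290, 1533 and 1651, a fold of 2.51, and so already stood high at day 1. Bdnf, a neurotrophin, was at 104, 211 and 501, a fold of 2.27, and its other probe gave 0.82. S100b, a calcium-binding protein of astrocytes, was at 330, 3020 and 1227, highest at day 1. Aqp4, the astrocyte water channel, was at 1841, 1902 and 4363, a fold of 1.25. Itpr1, the calcium release channel of the endoplasmic reticulum, gave 1.76 by 10 spots and 0.68 by its brighter probe. Fgf2, a fibroblast growth factor, gave 1.75 by 10 spots and -2.47 by its brighter probe. A tight spot error therefore did not carry over to the second probe of these genes.

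The lowest fold of the named 10-spot probes was that of Crh, corticotropin-releasing hormone, at 4643, 8384 and 1315, a log2 fold of -1.82 with a spot error of 0.04. Nppa, a natriuretic peptide, was at 700, 936 and 202, a fold of -1.79. Oprm1, the mu opioid receptor, was at 469, 178 and 139, a fold of -1.76, while its second probe, not well above background in sham, read 345 at day 7. Spp1, the matrix protein osteopontin, was at 6485, 6151 and 2035, a fold of -1.67. Ngfr, the low-affinity neurotrophin receptor, was at 1462, 436 and 505, and Icam1, an adhesion molecule of activated endothelium, at 1322, 266 and 582. Ngfr and Icam1 were lower on both arrays after surgery, whereas Spp1 was lower at day 7 alone. Cdkn1a, a brake on cell division, was at 49662, 38280 and 18624, a fold of -1.41. Ace and Slc12a2 gave -1.18 and -1.26, and the second probe of Slc12a2, a chloride importer, gave -0.48. Hspa1a, the inducible heat shock protein, which has a near-identical copy in the genome, gave -1.63 by 10 spots and 1.20 by its other probe.

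By single probes the extremes were larger. Beyond the muscle and keratin genes described further on, Acvr1b, an activin receptor, was at 373, 386 and 11976, a log2 fold of 5.00. Cat, the peroxide-degrading enzyme catalase, was at 549, 644 and 5902, a fold of 3.43. Nrgn, the postsynaptic calmodulin-binding protein neurogranin, was at 1627, 1628 and 16234, a fold of 3.32. All 3 genes were alike in sham and at day 1 and stood apart at day 7. At the low end Cacna1a, the pore of P/Q-type calcium channels, was at 22332, 207 and 215, a fold of -6.70, so that the sham array stood apart. Nfasc, the node-of-Ranvier adhesion protein neurofascin, was at 3431, 220 and 161, a fold of -4.42. Slc6a5, the neuronal glycine transporter, was at 7763, 7162 and 202, a fold of -5.26, and here the day 7 array stood apart. Lamp5, a neuronal membrane protein of the endosome family, lay between, at 4555, 1497 and 284.

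Counted over genes measured on all 3 arrays, the array farthest from the other pair was the day 7 array for 323 of 637 genes at least 2-fold higher and the sham array for 303. Of 344 genes at least 2-fold lower, the day 7 array stood apart for 178 and the sham array for 152. Past 8-fold, it was the day 7 array for 15 of 19 higher genes, Acvr1b and Cat among them, and for 23 of 30 lower genes, Slc6a5 among them. The sham array stood apart for the other 4 and 7, Cacna1a among the latter.

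Genes well above background on 1 array only have a bound, in which the dim value is replaced by the start of that array's well-above-background range, or kept if it was higher. With provisional names left out and only bounds above 1-fold counted, 195 such genes were higher at day 7 and 341 lower. The bound was at least 2-fold for 187 and 101 of them. The well-above-background range began at 66.9 in sham and at 121.6 at day 7, which by itself favoured larger bounds on the higher side. Hoxa2 was at least 69.5-fold lower. Fgf11, an intracellular partner of sodium channels, was at least 31.7-fold lower, from 3860 in sham, and Pank4 at least 44.8-fold. Esrrg, an orphan nuclear receptor, was at least 13.2-fold lower, and at 622 it was still well above background at day 1. On the high side Or4s2, an olfactory receptor gene, was at least 48.1-fold higher, Capn3, a muscle protease, 27.9-fold, and Krt26 25.1-fold. Akap14, an anchoring protein of motile cilia, reached 787 at day 7, at least 11.8-fold higher.

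The 3 neurofilament subunit genes were lower at day 7. They were the 3 genes at least 2-fold lower (21.4%, against 5.73% of all genes) of 14 measured axon and neuron skeleton genes. None was higher, and the median log2 fold was -0.41 against 0.05 for all genes. Of these genes, 13 were brighter than 1996, the median level of probes well above background, on both arrays, and their median was -0.43. Nefh, the heavy neurofilament subunit, was at 23504, 14695 and 4779, a fold of -2.30. Nefl, the light subunit, was at 18471, 15271 and 6070, a fold of -1.61, and Nefm, the medium subunit, at 46382, 39871 and 20594, a fold of -1.17. All 3 neurofilament genes of large-calibre axons were lowest at day 7, with day 1 between. Ina gave -0.58, Uchl1 -0.32, Stmn2 0.20 and Kif5a 0.31, so the list did not move as a block. Of 20 measured myelin and oligodendrocyte genes, 2 were lower, Mbp at 38209, 23667 and 15666 (-1.29, other probe -1.0) and Aspa (-1.20), with a list median of -0.30. The summed level of 5 oligodendrocyte markers went from 115628 in sham and 99574 at day 1 to 75984 at day 7. In tissue RNA, fewer cells of a type and less RNA per cell cannot be told apart.

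Glycine genes split. Of 8 measured, 3 were lower and none higher, where 5.73% of all genes were lower and 11.1% higher. Besides Slc6a5, the receptor subunit Glra1 was at 1267, 2450 and 437, a log2 fold of -1.53, and the subunit Glrb at 441, 242 and 146, a fold of -1.59. Glra2, a subunit known from immature neurons, was at 6129, 6491 and 11126, a fold of 0.86, and Gphn, the anchor of these receptors, gave 0.38. The median of -0.19 turned to 0.44 over the 2 brighter members, so the list has no steady direction. GABA genes had 3 higher and 3 lower of 23. Gad2, the other GABA-making enzyme, was at 1676, 3745 and 4132, a fold of 1.30, and Gabra4, a receptor subunit, at 184 in sham and 738 at day 7, a fold of 2.00. Lower were Slc12a2, Gabra3 (-1.06) and Gabrb2 (-1.08). Slc32a1, the vesicle carrier that GABA and glycine share, was nearly level, at 60647, 64467 and 59965.

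Ionotropic glutamate receptor genes leaned upward, with 4 of 20 higher, none at least 2-fold lower and a median of 0.32, or 0.25 over the 11 brighter members. Among all genes, 11.1% were higher and 5.73% lower. Besides Gria2, the kainate receptor Grik2 was at 4622, 4874 and 10470, a log2 fold of 1.18, and the NMDA receptor subunit Grin2d at 11540, 30419 and 24277, a fold of 1.07. Cacng8, an AMPA receptor partner, was at 99.9, 133 and 523, a fold of 2.39. Grik2 stood apart at day 7, while Grin2d was highest at day 1. Of 15 metabotropic receptor and glutamate transport genes, Grm7 (2.69) and Homer2 (1.21) were higher and none was lower. Cacng8 and Grm7 lay below 121.6 in sham, where the filter admitted only higher values. Synaptic vesicle genes had 4 lower and 2 higher of 27, with a median of -0.16. Rab3a, a vesicle G protein, was at 28628, 23454 and 11244, a log2 fold of -1.35. The synaptotagmin genes Syt11 and Syt7 gave -2.06 and -1.0, while Syt4 gave 1.20.

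Among 37 potassium and HCN channel genes, 6 were higher and 4 lower, against 11.1% and 5.73% of all genes. The pacemaker channels Hcn2 and Hcn4 were both lower, Hcn2 at 1607, 521 and 615 (-1.39) and Hcn4 at 642, 376 and 245 (-1.39). Kcnab2, a Kv channel partner, gave -1.50 and the leak channel Kcnk1 -1.10. Other leak channels were higher, Kcnk2 at 5955, 7447 and 12345 (1.05), Kcnk3 (1.41) and Kcnk9 (1.31), together with the inward rectifiers Kcnj4 (1.90) and Kcnj9 (1.29). The list median of 0.14 became -0.03 over its 17 brighter members. Among 17 sodium channel and node genes, Scn8a, the main sodium channel of nodes, was at 3955, 2563 and 1436, a log2 fold of -1.46, and Nfasc was lower as above. Scn4a (1.22), known from skeletal muscle, was higher. Calcium channel genes had 3 of 11 higher, among them Cacna2d1, the gabapentin-binding subunit, at 8502, 11883 and 26134 (1.62), beside Cacna1a and Cacna2d3 (-1.51) lower.

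**Figure D3:**
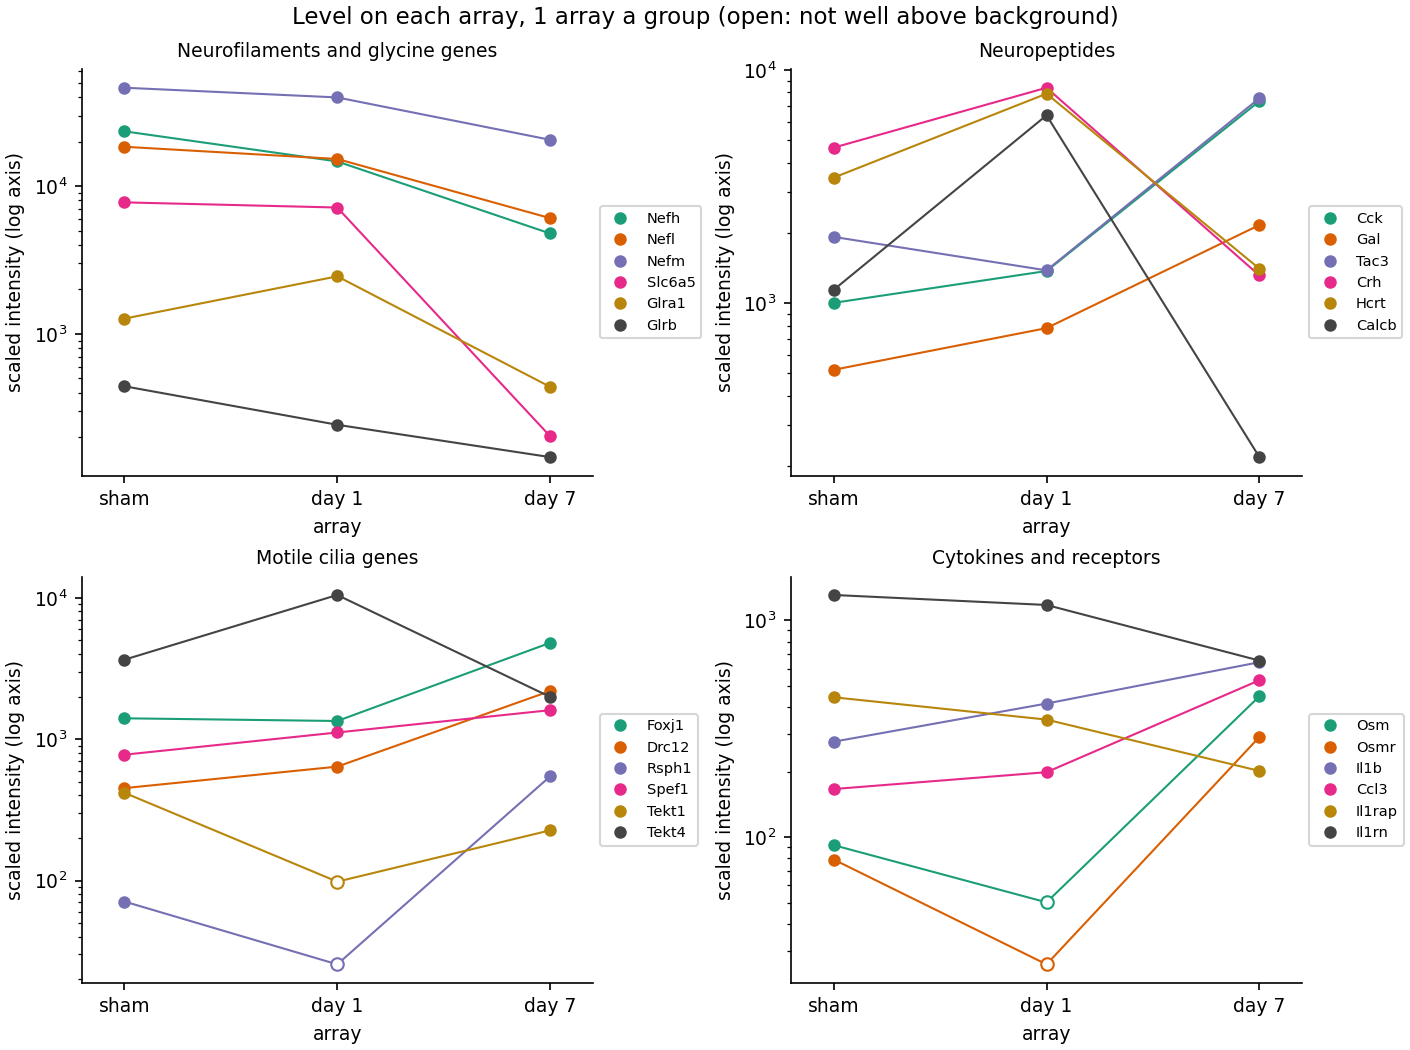
Scaled intensity (y axis, log scale) on the sham, day 1 and day 7 arrays (x axis, 1 array a group) of 6 genes in each of 4 groups, 1 line a gene; open points were not well above background. Nefh falls from 23504 to 4779 by way of 14695, Slc6a5 drops at day 7 alone, Cck and Tac3 are highest at day 7, and Calcb peaks at day 1.

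Neuropeptide genes went both ways, with 7 of 28 higher and 4 lower, against 11.1% and 5.73% of all genes. Gal, galanin, which injured neurons are known to make, was at 519, 782 and 2164, a log2 fold of 2.06. Tac3, which encodes neurokinin B, was at 1924, 1383 and 7559, a fold of 1.97. Pdyn, the dynorphin precursor, was at 522, 2144 and 2148 (2.04), and Grp, gastrin-releasing peptide, at 424, 1714 and 1891 (2.16). Gal and Tac3 were highest at day 7, whereas Pdyn and Grp had reached their level by day 1. Calcb, a calcitonin gene-related peptide of motor and sensory neurons, was at 1141, 6386 and 219, a fold of -2.38. Hcrt, the orexin precursor, was at 3453, 7905 and 1406 (-1.30), and Cartpt, the CART peptide, at 1470, 3241 and 709 (-1.05). Calcb, Hcrt, Cartpt and Crh thus shared an order, highest at day 1 and lowest at day 7. Of 15 cholinergic genes, 3 were lower and 1 higher. Slc18a3, the vesicular acetylcholine transporter, was at 4787, 16872 and 1518 (-1.66), and Slc5a7, the choline carrier, at 1055, 3629 and 393 (-1.43). Both had the order of those peptides. Isl2, a motor neuron factor, was at 131 in sham and 418 at day 7 (1.67), and the receptor subunit Chrna4 gave -1.42.

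The cAMP response element, with the letters TGACGTCA on both strands alike, is known from several peptide genes, and its match was looked up in the 250 bases before the start of each gene in RefSeq on the GRCr8 build. It was found in 4 of 18 measured neuropeptide genes with an entry, against 1.59% of 33469 promoters. The 4 genes had log2 folds of 1.05 (Ucn), -0.09 (Vgf), -0.18 (Scg2) and -1.05 (Cartpt), so the match went with no common direction. The AP-1 letters TGACTCA or TGAGTCA were in none of the 18 and in 4.05% of all promoters. Ucn, the stress peptide urocortin at 28631, 51749 and 59248, and Cartpt are shown because they differed from sham in opposite directions. The element, in capitals, starts 110 bases before the start of Ucn (chr6:30957836-30958085, plus strand) and 142 before that of Cartpt (chr2:32991236-32991485, minus strand).
Ucn: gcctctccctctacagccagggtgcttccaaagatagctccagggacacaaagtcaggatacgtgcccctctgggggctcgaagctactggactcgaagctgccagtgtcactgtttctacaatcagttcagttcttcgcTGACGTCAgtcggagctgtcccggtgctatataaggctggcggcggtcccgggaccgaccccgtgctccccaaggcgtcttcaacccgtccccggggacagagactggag
Cartpt: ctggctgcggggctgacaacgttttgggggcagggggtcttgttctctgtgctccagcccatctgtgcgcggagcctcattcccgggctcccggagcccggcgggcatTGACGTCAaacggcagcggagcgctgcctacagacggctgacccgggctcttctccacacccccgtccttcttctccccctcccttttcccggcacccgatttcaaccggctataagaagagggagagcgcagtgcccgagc

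More inflammatory genes were higher than lower at day 7, mostly from low levels. Of 30 measured cytokine, chemokine and receptor genes, 11 were higher and 3 lower, and the median log2 fold was 0.77. Among all genes, 11.1% were higher and 5.73% lower. Of the 30, 16 were in the dimmest of the 4 groups of genes, whose median was 0.40, and the 6 members above 1996 on both arrays had a median of -0.21. Osm, Osmr, Ccl22, Cxcr4 and Cxcl9, all counted as higher, were below 121.6 in sham, so the filter fixed their direction. Il1b, an inflammatory cytokine on 10 spots, was at 276, 414 and 642, a log2 fold of 1.22 with a spot error of 0.09, and its other probe gave 0.93. Osm, a cytokine of activated macrophages, was at 92.0 in sham and 447 at day 7 (2.28), and its receptor Osmr at 79.0 and 290 (1.88), both not well above background at day 1. Ccl3, a microglial chemokine, was at 167, 200 and 530 (1.67). Ccl22 gave 1.89 and -0.02 by its probes. Lower were Il18 (-1.0), the receptor partner Il1rap (-1.13) and Il1rn, which blocks that receptor, at 1311, 1179 and 653 (-1.01). Of 20 interferon response genes, 6 were higher, none was lower and the median was 0.60. Of these 20, 15 lay below 1996 in sham, and the 5 above it on both arrays had a median of 0.31. Ifi47, counted among the 6, was below 121.6 in sham and could only be higher. Ifngr1, the interferon gamma receptor, was at 204 in sham and 2838 at day 7 (3.80), Adar, an RNA-editing enzyme, at 367, 3873 and 2289 (2.64), and Rsad2, an antiviral enzyme, at 4038, 4259 and 8244 (1.03).

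Complement and microglia genes were not past 2-fold more often than all genes. Of 21 complement and Fc receptor genes, C1qc and C4a (1.43) were higher (9.52%, against 11.1% of all genes) and none was lower. C1qa was at 6166, 4578 and 11960 (0.96, other probe 0.86). Of 15 microglia and macrophage genes, 1 was higher and 1 lower (6.67% each), Tyrobp, a signalling adaptor, at 5997, 8028 and 12069 (1.01) and Cybb at 764, 730 and 336 (-1.19). The 4 microglia markers summed to 7856, 4032 and 7824 in the order sham, day 1 and day 7. Antigen presentation genes were split, with RT1-A2 (2.02, other probe 0.72) and RT1-Db1 (1.41, other probe 0.80) higher and RT1-S3 lower (-1.0). Genes of this family resemble each other, so a probe may read more than 1 of them. Reactive astrocyte genes had 5 of 21 higher and 2 lower, against 11.1% and 5.73% of all genes. Steap4 and Osmr, counted among the 5, were below 121.6 in sham and could only be higher. Vim, the filament vimentin, was at 705, 603 and 2086, a log2 fold of 1.57, and Cd44, a hyaluronan receptor, at 3314, 5676 and 12330 (1.90). Gfap, the usual astrocyte filament, was at 4463, 4180 and 3721, and the summed level of 5 astrocyte markers was 105240 in sham and 104360 at day 7.

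Some genes of the brain's linings and of other tissues were higher at day 7. Of 9 measured ependyma and cilia genes, 4 were higher and none lower, and 8 lay below 1996 in sham, in the dimmer groups with medians of 0.40 and 0.18. Among all genes, 11.1% were higher and 5.73% lower. Foxj1, the master factor of motile cilia, was at 1404, 1344 and 4800, a log2 fold of 1.77. Rsph1, a radial spoke protein, was at 71.1 in sham, not well above background at day 1, and at 545 at day 7 (2.94). From that sham level it could count as measured only if higher. The tektins Tekt1 and Tekt4 stood lower than in sham, at -0.88 and -0.87. The 3 ependyma markers were Foxj1, Tekt1 and Rsph1. Their summed level, most of it Foxj1 on each array, went from 1893 in sham and 1468 at day 1 to 5572 at day 7. The summed level of 4 choroid plexus markers went from 3912 and 2942 to 7006. Of the choroid plexus markers, Folr1 (1.72) and Sostdc1 (1.86) were higher, Ttr, transthyretin, was at 2575, 1118 and 2407, and Kl was not well above background on any array. Meningeal genes had 2 of 10 higher and none lower, Fmod, a collagen-binding proteoglycan, at 580, 1062 and 2797 (2.27) and Aldh1a2, a retinoic acid enzyme, at 166, 288 and 560 (1.76). Muscle genes had 8 of 24 higher and none lower, but 19 lay below 1996 in sham, and the 5 above it on both arrays had a median of -0.23. Tnni3, heart troponin I, was at 129, 1934 and 9881 (6.25) and Tnnt1, slow-muscle troponin T, at 481, 2582 and 7440 (3.95). Of 5 muscle markers, 4 were well above background in both groups, with summed levels of 3301 and 3546, and Myh4, of fast fibres, was not. Krt8, an epithelial keratin, was at 115, 224 and 6666 (5.85). The part that ependyma, choroid plexus or muscle tissue had in the genes above was not tested.

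**Figure D4:**
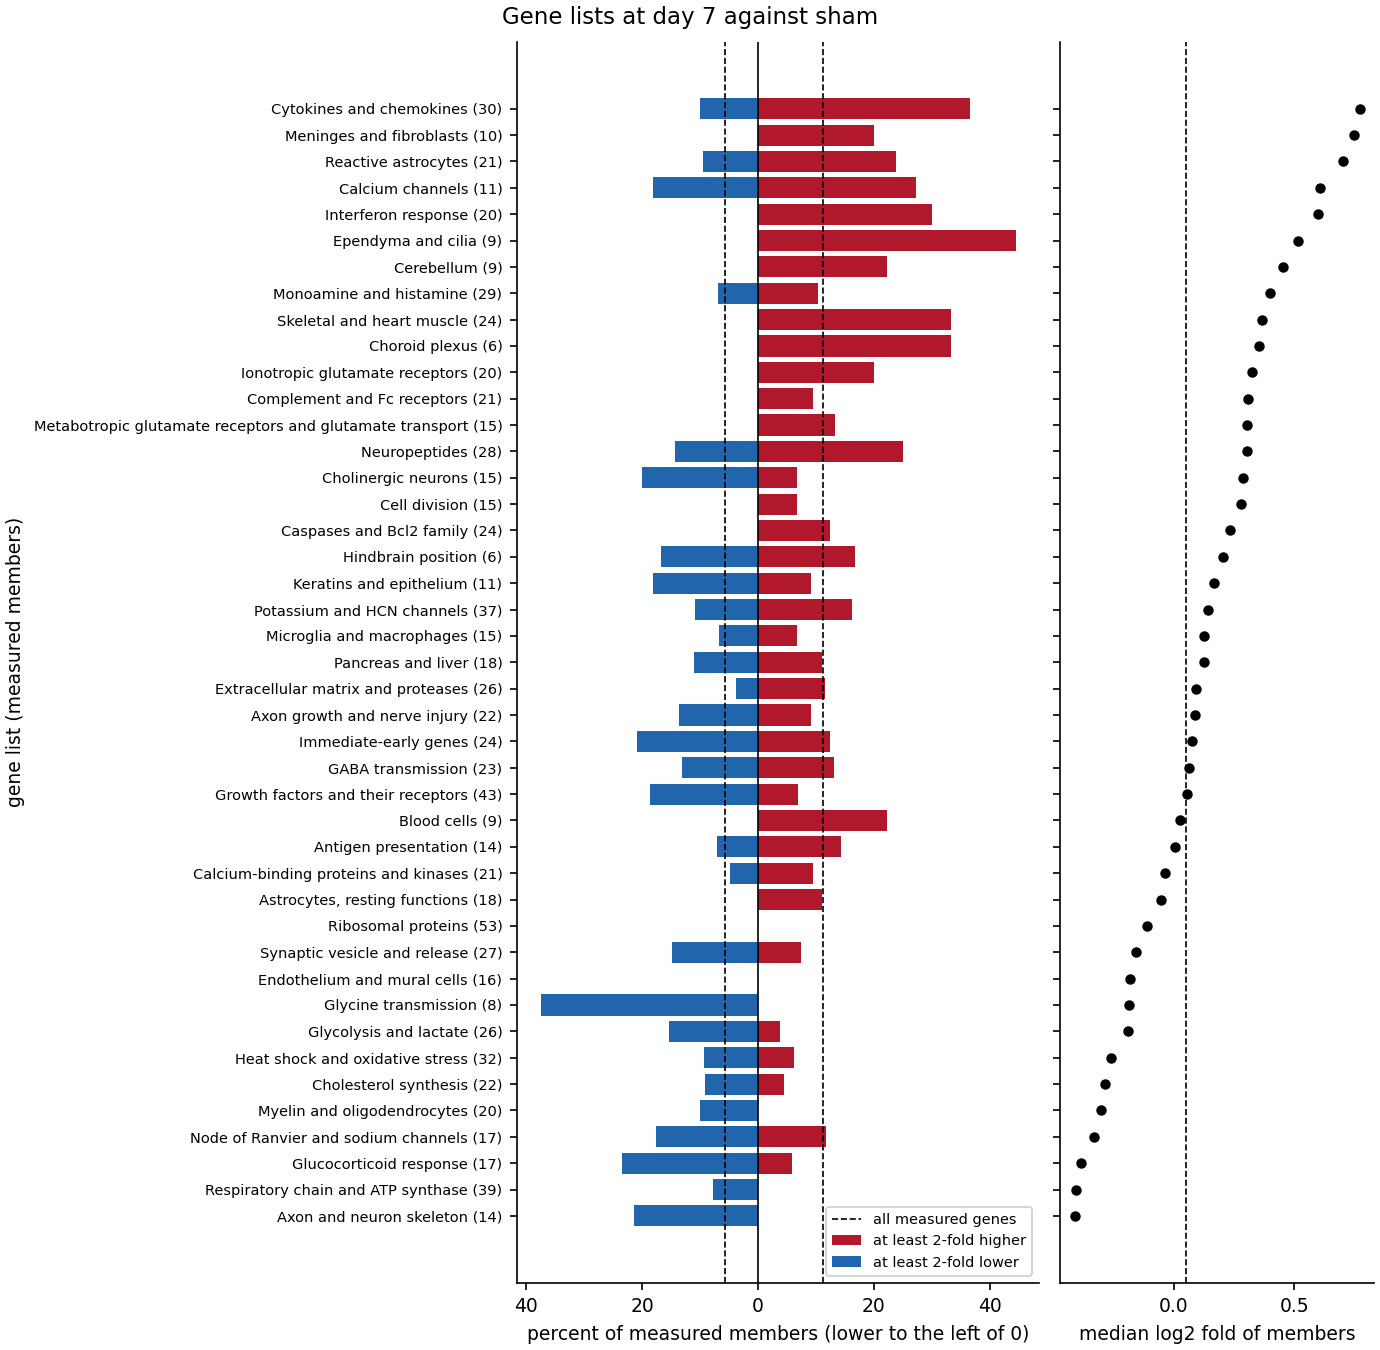
Percent of measured members at least 2-fold higher (red, to the right) and lower (blue, to the left) at day 7 than in sham for 43 gene lists (left panel) and the median log2 fold of each list (right panel), with measured members in brackets and dashed lines for all measured genes (11.1% higher, 5.73% lower, median 0.05). Cytokine genes have the highest median, 0.77, and axon skeleton genes the lowest, -0.41; the list of forebrain genes with 2 measured members is not drawn.

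Of 43 growth factor and receptor genes, 8 were lower (18.6%, against 5.73% of all genes) and 3 higher (6.98%, against 11.1%), while the list median was 0.06. Nrtn, the GDNF-family factor neurturin, was at 2880, 8551 and 630, a log2 fold of -2.19, and Inhba, an activin subunit, at 2729, 2704 and 742 (-1.88). Gfra2, the receptor for neurturin, was at 22686, 21679 and 64683 (1.51). Fgfr1, a fibroblast growth factor receptor, was at 23697, 34327 and 8762 (-1.44). Vegfa gave -3.44 by its brighter probe and -0.63 by its 9-spot probe, and Fgf2 differed between probes as above, so these 2 of the 8 lower calls rest on the probe. Immediate-early genes, which activity switches on, had 5 of 24 lower and 3 higher. Btg2 was at 9243, 2016 and 2072 (-2.16) and Nr4a1 at 1579, 356 and 637 (-1.31), both already lower at day 1. Ccn1 gave -2.11 and -0.02 by its probes. Egr2, a growth-response factor, was at 263 in sham and 1906 at day 7 (2.86), and Atf3, an injury-induced factor, at 1638, 836 and 3351 (1.03).

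Energy genes lay slightly below sham. Of 39 respiratory chain and ATP synthase genes, 3 were lower, none was higher and the median log2 fold was -0.41, or -0.40 over the 36 brighter members. Among all genes, 5.73% were lower and 11.1% higher. Atp5f1a, an ATP synthase subunit, was at 27322, 11419 and 10886 (-1.33), and Ndufs4, of complex I, at 2284, 1410 and 858 (-1.41). Of 26 glycolysis genes, 4 were lower and 1 higher. Tpi1 was at 42288, 26563 and 13676 (-1.63) and Hk2, a hexokinase, at 1181, 4460 and 229 (-2.37). Glucocorticoid-responsive genes had 4 of 17 lower and 1 higher, Pdk4, a brake on glucose oxidation, at 820, 588 and 150 (-2.45) and Ddit4, an mTOR inhibitor, at 832, 470 and 264 (-1.65). None of 53 ribosomal protein genes and none of 16 endothelial and mural cell genes was past 2-fold, with medians of -0.11 and -0.18.

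A group of probes had opposite differences on the arrays after surgery, which share the sham control. Of 81 probes at least 8-fold lower at day 7 and measured on all 3 arrays, 33 (40.7%) were at least 2-fold higher than sham at day 1 and 29 at least 2-fold lower. Over all 28692 probes measured on all 3 arrays, 7.13% were that much higher at day 1, and over the 29846 probes of the day 1 comparison 7.64% were higher and 3.85% lower. The 33 probes had log2 folds of 1.01 to 2.04 at day 1 and of -5.20 to -3.01 at day 7, from sham levels of 2883 to 29766. The choice fixed both directions, and a probe still measured after an 8-fold drop could not be dim in sham. Of the 33, 16 were named. Cela2a, a pancreatic elastase, was at 29766, 64949 and 1056, Cyp4a2, a kidney and liver fatty acid hydroxylase, at 9221, 31224 and 348, and Tgfbr3, a co-receptor for TGF-beta, at 19334, 47429 and 1153. Olfactory receptors (Or52z1, Or2av9, Or8h6), the transporter Slc13a2, Vegfa and Dffa were among the others. Slc13a2 gave 1.28 by its other probe at day 7. Of 101 probes at least 8-fold higher at day 7, 47 were at least 2-fold higher at day 1 as well and 1 was lower. Of the 344 genes at least 2-fold lower at day 7 and measured at day 1, 47 were at least 2-fold higher at day 1 and 102 at least 2-fold lower. What set this group of probes apart was not tested.

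**Figure D5:**
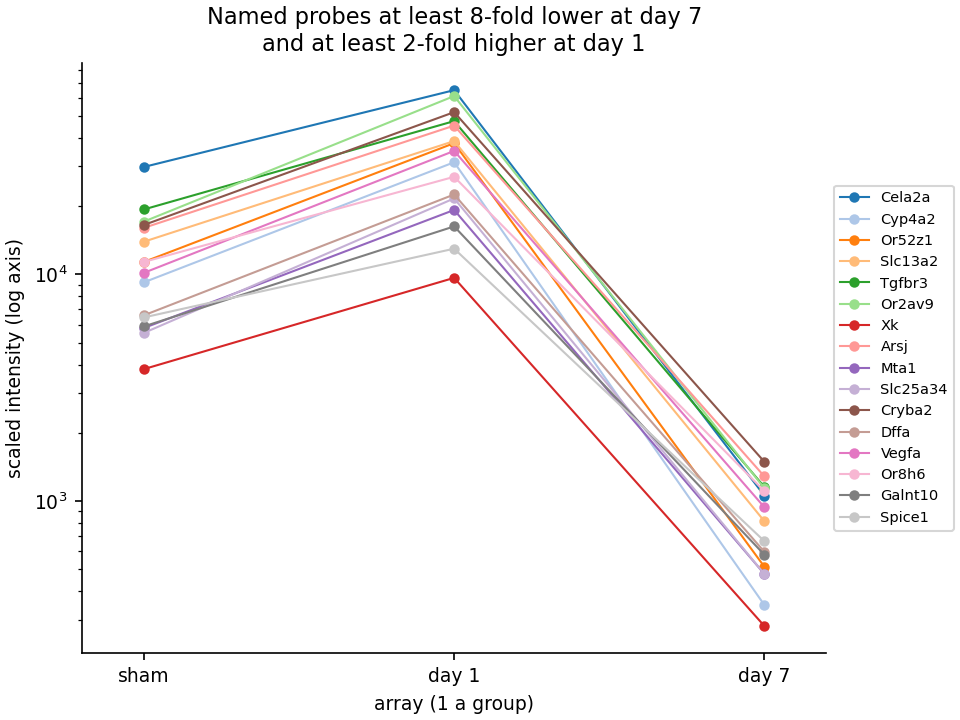
Scaled intensity (y axis, log scale) on the sham, day 1 and day 7 arrays (x axis, 1 array a group) of the 16 named probes at least 8-fold lower at day 7 and at least 2-fold higher at day 1, 1 line a probe. The lines run from sham levels of 3819 to 29766 up at day 1 and down to 281 to 1489 at day 7. The choice of the probes fixed this rise and fall.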

How the data were processed

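RNA of the vestibular nuclei was read on 3 Agilent 1-colour rat arrays of 1 slide, at positions 4 (sham), 3 (day 1) and 2 (day 7). Per the file headers, the scans were quantified in Agilent Feature Extraction 10.7.3.1, and the deposited processed intensity is linear, background-corrected and not scaled between arrays. Other deposited columns are flags per spot for background, saturation and outliers. Each file held 45018 spots, of which 43379 were not controls.

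From these files the log2 intensity minus the array's 75th percentile (5692 in sham, 5676 at day 7) was computed with Python 3.11.15 and pandas 2.3.3. Spots with an outlier flag (163 in sham, 193 at day 7) were dropped, and a probe's spots were averaged. RefSeq accessions of 10768 probes matched a GRCr8 gene table, and each gene took the value of its brightest probe by the mean of the 3 arrays. The authors' series table, with 34687 probes and unscaled linear medians of 1596, 1544 and 1688 (sham, day 1, day 7), matched the processed intensity within 0.1% for 99.3% of values and served as an alternative. Others were quantile, cyclic loess, normexp and median scaling (limma 3.58.1 in R 4.3.3), block medians, other fold sizes and other filters. The counting was tested on simulated data.

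With 1 array a group no test was possible, and the number of arrays limits the precision. The replicate numbers name single samples. The comparison, the 44 gene lists and the alternatives were chosen with earlier results of these data known. Genes were named by a rule: all probes past 2-fold in 1 direction (15 a direction), the 10 highest and 10 lowest on 10 spots, the 15 highest and 15 lowest by the brightest probe, the 5 largest bounds, and list members farthest from 0 or defining a list. Genes with provisional names were passed over, and not every gene the rule gives is reported here, in the text or in the plots of named genes. C8h11orf54, Dnaaf4, Cgm4, Hoxb7 and further list members were chosen after their values were seen.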

Additional observations from a re-analysis of the deposited data

Results flagged for a closer look

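Opposite differences of at least 2-fold on the arrays after surgery marked 19 genes among those searched. The search covered list members, genes past 2-fold by every probe, and the highest and lowest folds. Over all genes measured on all 3 arrays, 47 were at least 2-fold lower at day 7 and higher at day 1, and 9 the reverse. Each comparison rests on 1 array and both share the sham array, so the difference between days was not tested. Their log2 folds at day 7 against sham were -4.82 for Cela2a, -4.73 for Cyp4a2, -4.47 for Or52z1, -4.15 for Gapdhs (a glycolytic enzyme of sperm, saturated at day 1), -4.10 for Slc13a2, -4.07 for Tgfbr3, -3.91 for Or2av9, -3.77 for Xk, -3.47 for Dffa and -3.44 for Vegfa. They were -2.38 for Calcb, -2.37 for Hk2, -2.19 for Nrtn, -1.66 for Slc18a3, -1.43 for Slc5a7, -1.30 for Hcrt, -1.21 for Fdft1, -1.05 for Cartpt and -1.0 for RT1-S3. At day 1 all 19 were higher than sham, by 1.04 (Fdft1) to 2.48 (Calcb) on the log2 scale. The other probes of Slc13a2, Vegfa and Dffa did not have opposite differences of this size.

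Control spots for a viral gene, which the comparison does not use, were brighter at day 7. Of 10 such control probes, those well above background on both arrays read, at day 7 against sham and after scaling, 2862 against 1647, 1414 against 689 and 10253 against 6400. Whether this bears on the gene values was not tested.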

How the results depend on the processing

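No paired analysis was possible because each group had 1 array. Counts of genes and probes past 2-fold stayed within 1.5 times under the scalings, the treatment of flagged spots and the mean over probes. Without the filter on dim probes, 1265 genes were higher and 718 lower, and 5456 probes higher and 3370 lower. With probes brighter than 1996 on both arrays, these were 72 and 69 genes, and 373 and 365 probes. At 1.5-fold they were 1483 and 822 genes, and 6534 and 4081 probes; at 3-fold, 218 and 140 genes, and 1101 and 593 probes. List medians that changed sign with brighter probes, where fewer members were left, were those for GABA (-0.0082), immediate-early (-0.049), blood cell (-0.068), potassium and HCN channels (-0.026), glycine (0.44), metabotropic glutamate (-0.15), cholinergic (-0.12), cytokine (-0.21), cell division (-0.016), choroid plexus (-0.42) and muscle genes (-0.23). Without the filter those for potassium channels (-0.083), axon growth (-0.050), hindbrain (-0.18) and forebrain genes (0.79) did. Under other scalings, normexp or the mean over probes, the medians for calcium-binding, resting astrocyte, antigen presentation and blood cell genes, all between -0.052 and 0.025, also crossed 0. Fgf2 became -0.36 as the mean over its probes. Of 44 lists, 6 stayed within the probe spread (0.42 log2 for 1 probe, less for a median) in every alternative, and of 99 named probes, 58 did. After subtraction of the median of each of 100 blocks of the slide, which ranged from -0.17 to 0.20, 668 genes were higher and 376 lower. Background correction of the mean signal was not run, and the median signal was taken instead, chosen after seeing the data. Signal over background limits the dim end.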
